A study of Mus musculus with 21 samples.

Results

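10 genes that the oxygen-sensing pathway is known to switch on, and that have no place in glycolysis, were followed through the culture of mouse embryonic stem cells with and without vitamin B6. They are Adm, Vegfa, Egln1, Egln3, Bnip3, Ndrg1, P4ha1, Ankrd37, Kdm3a and Mxi1. They were chosen by name: each symbol had 1 row in the deposited tables, which hold 78317 gene rows, and all 10 members passed the filter on low counts. RNA was sequenced in 21 libraries of E14 cells, an established mouse embryonic stem cell line that can form every tissue of the embryo, in 7 groups of 3. The VB6 groups received pyridoxine (a vitamin B6 compound) at 20 µM for 3, 5 or 7 days. The vehicle groups were given vehicle for the same 3, 5 or 7 days, and the ES group stayed in standard culture with no treatment. All groups came from the same line, no genetic change is labelled in any of them, and the sources used here give neither the oxygen level of the cultures nor how differentiation was started. Nothing in the labels tells if the 3 libraries of each group are separate cultures, and p-values therefore measure the spread between these libraries, which may be technical.

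Hypoxia-inducible factor (HIF) is a pair of transcription factor subunits, an oxygen-labile alpha subunit encoded by Hif1a or Epas1 and a stable partner encoded by Arnt. In oxygenated cells the prolyl hydroxylases encoded by Egln1, Egln2 and Egln3 mark the alpha subunit for destruction through the von Hippel-Lindau protein, and low oxygen stops that reaction, so HIF acts mainly through protein level and not through its own mRNA. HIF then binds a short DNA element near its target genes, among them secreted vessel factors, its own hydroxylases, and enzymes that modify collagen or chromatin.

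The promoters of members whose levels moved most are printed to show where the core of that element, ACGTG or GCGTG read on either strand, lies. The RefSeq table for GRCm38.p6 holds 300-base windows around annotated start sites, with 14 windows for 9 members and no entry for Ndrg1. Of these 14 windows, 10 contain at least 1 core, and each of the 9 members has at least 1 such window. Of all 32851 windows in the table, 43.8% contain a core, with ACGTG in 19.6% and GCGTG in 32.4%, so a match in a single window is common. Capitals mark each core on either strand, read as CACGT or CACGC where it lies on the other strand. Adm and Egln3 rose most between ES and vehicle day 3, Vegfa fell most, and Ankrd37 fell by day 7 in vehicle. P4ha1 had the highest log2 fold change of VB6 over vehicle at day 7 in the main fit (0.49). After the adjustment for GC content and transcript length described below, Mxi1 was higher (0.40, against 0.31 for P4ha1).
Adm (chr7:110627407-110627706, plus strand): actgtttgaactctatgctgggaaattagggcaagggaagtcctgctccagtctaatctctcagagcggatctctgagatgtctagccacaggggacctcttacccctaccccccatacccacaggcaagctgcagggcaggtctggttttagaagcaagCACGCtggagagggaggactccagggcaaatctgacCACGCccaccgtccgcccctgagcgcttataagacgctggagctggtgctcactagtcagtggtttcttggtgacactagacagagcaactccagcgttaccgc
Egln3 (chr12:54203825-54204124, minus strand): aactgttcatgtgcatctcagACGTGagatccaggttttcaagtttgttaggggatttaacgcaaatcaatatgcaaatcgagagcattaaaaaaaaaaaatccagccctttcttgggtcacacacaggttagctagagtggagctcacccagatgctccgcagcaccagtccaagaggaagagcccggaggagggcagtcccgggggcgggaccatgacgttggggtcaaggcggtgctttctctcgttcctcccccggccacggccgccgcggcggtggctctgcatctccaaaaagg
Vegfa (chr17:46032328-46032627, minus strand): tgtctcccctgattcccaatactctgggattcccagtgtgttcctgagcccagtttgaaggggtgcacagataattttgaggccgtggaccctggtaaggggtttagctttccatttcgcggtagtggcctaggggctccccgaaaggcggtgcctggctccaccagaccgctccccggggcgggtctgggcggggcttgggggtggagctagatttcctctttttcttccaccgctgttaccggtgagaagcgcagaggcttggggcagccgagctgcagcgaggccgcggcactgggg
P4ha1 (chr10:59323046-59323345, plus strand): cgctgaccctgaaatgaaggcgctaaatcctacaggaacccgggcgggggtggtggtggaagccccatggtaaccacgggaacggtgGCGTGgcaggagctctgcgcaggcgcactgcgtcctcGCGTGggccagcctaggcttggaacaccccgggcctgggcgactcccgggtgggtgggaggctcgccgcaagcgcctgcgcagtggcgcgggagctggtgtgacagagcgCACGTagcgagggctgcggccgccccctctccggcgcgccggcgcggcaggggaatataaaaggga
Ankrd37 (chr8:45999801-46000100, minus strand): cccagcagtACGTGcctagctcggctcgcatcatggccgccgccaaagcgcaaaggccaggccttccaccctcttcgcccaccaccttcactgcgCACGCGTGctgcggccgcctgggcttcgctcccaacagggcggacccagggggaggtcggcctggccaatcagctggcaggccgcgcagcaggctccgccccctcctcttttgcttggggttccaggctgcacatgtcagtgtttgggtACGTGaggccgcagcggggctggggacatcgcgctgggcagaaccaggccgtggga
The Adm window has 2 cores, at -90 and -54 from the start site, and the Egln3 window has 1, at -229. The Vegfa window printed, at the start of the annotated gene, holds none, while a second Vegfa window at an internal start holds 2, at -218 and -211. The P4ha1 window has 3 and the Ankrd37 window 4, of which a pair overlap and were counted separately. The Ankrd37 window also lies at an internal start, since the annotated minus-strand gene begins at 46005707. A match describes letters only, and no binding was measured.

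The depth per library was 15882380 to 21629730 expected counts, and the lowest member count in any library was 72. The libraries of a pair of groups stood apart: the fragment length implied by the deposited values averaged 266 ± 7.77 nt for VB6 day 7 (SD, n = 3) and 227 ± 8.69 nt for vehicle day 5, against 307 to 312 nt in the other 5 groups. Those 2 groups also had the smallest shares of ribosomal protein reads, 3.43 ± 0.118% in VB6 day 7 and 3.54 ± 0.166% in vehicle day 5, against 5.79 to 6.99% elsewhere. Since one is a VB6 group and the other a vehicle group, fragment length and VB6 cannot be told apart at days 5 and 7, where the gap between arms runs in opposite directions. Each comparison was therefore fitted again with a library-specific adjustment for GC content and transcript length, whose values are called corrected. Marker sums differed between ES and vehicle day 7, for which the labels name no cell type. The summed level of 5 pluripotency genes was 263 ± 20.98 CPM (counts scaled to a common library total) in vehicle day 7 and 2638 ± 174 CPM in ES, and that of 6 visceral endoderm genes was 3872 ± 160 CPM in vehicle day 7 and 32.0 ± 3.59 CPM in ES. The sum of 3 neural ectoderm genes was also higher, at 113 ± 6.57 CPM in vehicle day 7 and 16.1 ± 1.11 CPM in ES. That of 4 definitive endoderm genes was 183 ± 16.5 CPM in vehicle day 7 and 15.0 ± 2.09 CPM in ES. For 4 fibroblast genes it was 535 ± 92.0 CPM in vehicle day 7 and 62.7 ± 8.20 CPM in ES, though Thy1 and Pdgfrb were lower. Sums of formative epiblast and mesoderm genes were higher too, and those of endothelial and blood genes lower.

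The members differed widely in level. On the TPM scale, which corrects for transcript length, Bnip3 was the most abundant member in every group, with group means of 233 to 508 TPM, and Adm was the least abundant, at 5.45 to 23.2 TPM. P4ha1 ran from 51.9 to 254 TPM, Vegfa from 27.3 to 176 TPM and Kdm3a from 59.6 to 155 TPM. Ndrg1, Egln1, Egln3, Mxi1 and Ankrd37 stayed between 17.1 and 71.0 TPM. On the CPM scale, which is used for each gene below, the ratio of the highest to the lowest group mean was 4.93 for Vegfa, 4.48 for Adm, 3.46 for P4ha1 and 2.72 for Egln3, and it was 1.70 for Mxi1, the flattest member. The median coefficient of variation within a group ran from 4.57% for P4ha1 to 16.9% for Adm. No single order of groups held for the members: the highest group was vehicle day 3 for Adm, Egln3 and Ankrd37, vehicle day 5 for Bnip3 and Kdm3a, day 7 for Vegfa, Egln1, P4ha1 and Mxi1, and ES for Ndrg1. The top groups were not always distinct: the libraries of VB6 day 7 and vehicle day 7 overlapped for Vegfa, and those of VB6 day 7, vehicle day 5 and vehicle day 7 for Egln1. For Ndrg1 the ES libraries overlapped those of VB6 day 7, vehicle day 5 and vehicle day 7. For Ankrd37 the vehicle day 3 libraries overlapped those of VB6 day 3 and ES.

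**Figure D1:**
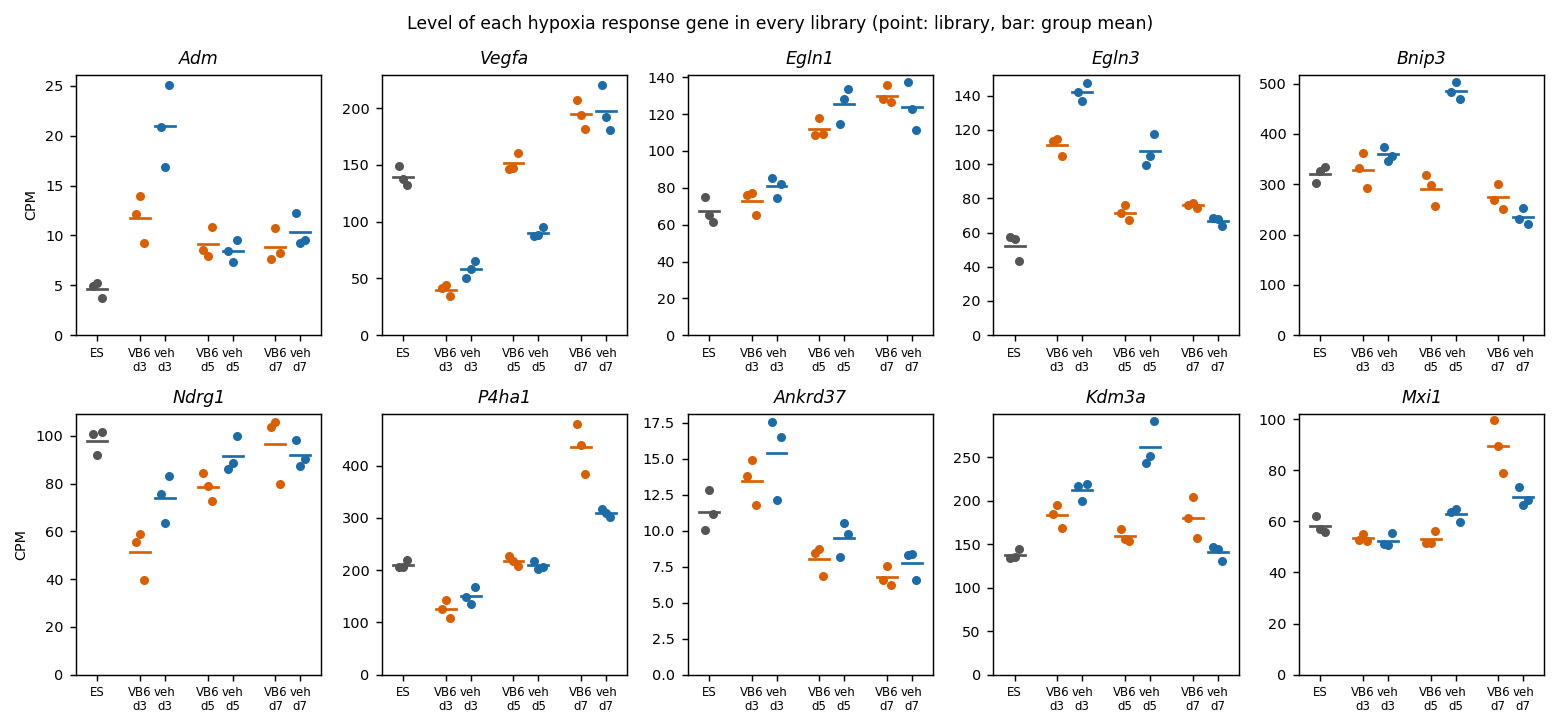
Level of each member in CPM (linear axis from 0) in every library, with ES first and then VB6 and vehicle at days 3, 5 and 7. Each point is 1 library and each bar the mean of 3. Vegfa was lowest at day 3 and highest at day 7, while Adm and Egln3 were highest in vehicle day 3.

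The vehicle groups show how the members changed as the cells left the stem cell state. From ES to vehicle day 3 the members split: Adm, Egln3, Kdm3a, Ankrd37 and Egln1 rose and Vegfa, P4ha1 and Ndrg1 fell. By edgeR's quasi-likelihood test with Benjamini-Hochberg adjustment over the 18901 genes tested, 8 of 10 members had an adjusted p under 0.05, the threshold used throughout, 5 higher and 3 lower. Of all genes tested, 64.9% passed in this comparison, 33.1% higher and 31.8% lower, so the count itself is near the background. The members' median log2 fold change was 0.21, against 0.01 for all genes. In bulk RNA, fewer cells of a type and less RNA per cell cannot be told apart.

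Adm (ENSMUSG00000030790, mm10 chromosome 7, 110627661 to 110629820, plus strand) encodes adrenomedullin, a secreted vasodilator peptide. Its libraries held 4.97, 5.27 and 3.78 CPM in ES, 20.9, 16.9 and 25.1 CPM in vehicle day 3, 8.48, 7.37 and 9.57 CPM in vehicle day 5, and 12.2, 9.28 and 9.59 CPM in vehicle day 7. Adm thus peaked at day 3, with no overlap between those libraries and any other group. It rose by a log2 of 2.16 (SE 0.18) in vehicle day 3 over ES (edgeR adjusted p = 4.32e-10) and fell by 1.01 (SE 0.17) in vehicle day 7 relative to vehicle day 3 (edgeR adjusted p = 1.27e-05).

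Vegfa (ENSMUSG00000023951, chromosome 17, 46016993 to 46032369, minus strand), the main growth factor for blood vessels, ran the other way. Its libraries held 149, 137 and 132 CPM in ES, 49.98, 58.4 and 65.7 CPM in vehicle day 3, 87.8, 87.9 and 95.1 CPM in vehicle day 5, and 220, 192 and 180 CPM in vehicle day 7. These groups did not overlap, so Vegfa had a trough at day 3 and ended above its ES level. It fell by a log2 of 1.26 (SE 0.09) in vehicle day 3 relative to ES (edgeR adjusted p = 4.4e-11) and rose by 1.76 (SE 0.09) in vehicle day 7 over vehicle day 3 (edgeR adjusted p = 7.38e-14). Adm and Vegfa therefore changed in opposite directions at each of these steps.

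The hydroxylases that restrain HIF also parted ways. Egln3 (ENSMUSG00000035105, chromosome 12, 54178981 to 54203860, minus strand) held 57.3, 56.4 and 43.3 CPM in ES, 142, 137 and 147 CPM in vehicle day 3, 99.6, 105 and 118 CPM in vehicle day 5, and 68.3, 67.9 and 64.0 CPM in vehicle day 7. Like Adm it was highest at day 3, and then declined with no overlap between successive days. The rise in vehicle day 3 over ES was a log2 of 1.44 (SE 0.08, edgeR adjusted p = 2.99e-13), and vehicle day 7 stood at -1.09 (SE 0.08) relative to vehicle day 3 (edgeR adjusted p = 2.42e-11). Egln1 (ENSMUSG00000031987, chromosome 8, 124908587 to 124949324, minus strand), the main HIF hydroxylase in most cells, held 74.8, 65.2 and 61.5 CPM in ES, 85.4, 74.5 and 82.3 CPM in vehicle day 3, 115, 128 and 134 CPM in vehicle day 5, and 138, 123 and 111 CPM in vehicle day 7. Its ES and day 3 libraries overlapped slightly, and both later days lay above them. Egln1 rose by a log2 of 0.27 (SE 0.09) in vehicle day 3 over ES (edgeR adjusted p = 0.00926), a call that was lost without ES replicate 3 and on TPM values. In vehicle day 7 over vehicle day 3 it rose by 0.62 (SE 0.08, edgeR adjusted p = 7.55e-07), or 0.32 (SE 0.08) corrected.

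P4ha1 and Ndrg1 shared the trough of Vegfa at day 3. P4ha1 (ENSMUSG00000019916, chromosome 10, 59323296 to 59373304, plus strand) encodes the catalytic subunit of the prolyl hydroxylase that stabilises collagen. It held 206, 205 and 220 CPM in ES, 149, 136 and 167 CPM in vehicle day 3, 218, 203 and 206 CPM in vehicle day 5, and 317, 309 and 301 CPM in vehicle day 7. The day 3 libraries were all lower and the day 7 libraries all higher than the rest. P4ha1 stood at a log2 of -0.48 (SE 0.09) in vehicle day 3 relative to ES (edgeR adjusted p = 3.42e-05) and at 1.03 (SE 0.09) in vehicle day 7 over vehicle day 3 (edgeR adjusted p = 1.86e-10). Ndrg1 (ENSMUSG00000005125, chromosome 15, 66929318 to 66969640, minus strand), a stress-responsive cytoplasmic protein, held 101, 91.8 and 101 CPM in ES, 75.5, 63.6 and 83.0 CPM in vehicle day 3, 85.9, 88.6 and 99.7 CPM in vehicle day 5, and 98.2, 87.5 and 90.2 CPM in vehicle day 7. It was below every ES library at day 3 and back within the ES range or just under it by day 7. It fell by a log2 of 0.40 (SE 0.12) in vehicle day 3 relative to ES (edgeR adjusted p = 0.00479). Its rise of 0.31 (SE 0.12) in vehicle day 7 over vehicle day 3 (edgeR adjusted p = 0.0239) was lost after correction (0.11), without vehicle day 3 replicate 2 and without vehicle day 7 replicate 1.

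Bnip3 (ENSMUSG00000078566, chromosome 7, 138890836 to 138909519, minus strand), a mitochondrial outer membrane protein that targets mitochondria for autophagy, peaked at day 5. It held 302, 326 and 334 CPM in ES, 374, 347 and 357 CPM in vehicle day 3, 483, 504 and 469 CPM in vehicle day 5, and 232, 253 and 221 CPM in vehicle day 7. Kdm3a (ENSMUSG00000053470, chromosome 6, 71588972 to 71632990, minus strand), a histone demethylase, held 134, 135 and 144 CPM in ES, 217, 200 and 219 CPM in vehicle day 3, 243, 252 and 292 CPM in vehicle day 5, and 147, 144 and 131 CPM in vehicle day 7. Both were highest in vehicle day 5, above every other group with no overlap, in the group with the shortest fragments. In vehicle day 7 relative to vehicle day 3, a pair of groups with like fragment lengths, Bnip3 fell by a log2 of 0.61 (SE 0.08, edgeR adjusted p = 4.71e-07) and Kdm3a by 0.60 (SE 0.08, edgeR adjusted p = 8.67e-07). Bnip3 in vehicle day 3 stood at 0.16 (SE 0.08) over ES and missed the threshold (edgeR adjusted p = 0.0774), while corrected it was 0.20 and passed (edgeR adjusted p = 0.0289). Kdm3a rose by 0.62 (SE 0.08) in vehicle day 3 over ES (edgeR adjusted p = 5.3e-07), or 0.31 on TPM values.

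Ankrd37 (ENSMUSG00000050914, chromosome 8, 45996902 to 46005707, minus strand), an ankyrin repeat protein, and Mxi1 (ENSMUSG00000025025, chromosome 19, 53310518 to 53375810, plus strand), a repressor that competes with MYC for its partner MAX, had small differences between ES and day 3. Ankrd37 held 10.0, 12.8 and 11.1 CPM in ES, 17.5, 12.1 and 16.5 CPM in vehicle day 3, 8.15, 10.5 and 9.79 CPM in vehicle day 5, and 8.31, 8.40 and 6.54 CPM in vehicle day 7. Its day 3 and ES libraries overlapped, and the rise of 0.44 (SE 0.14, edgeR adjusted p = 0.00851) was lost without vehicle day 3 replicate 1 and on TPM values. Day 7 was clearly lower, at -0.99 (SE 0.15) relative to vehicle day 3 (edgeR adjusted p = 2.8e-06). Ankrd37 lies in a region shared with Ufsp2 on the opposite strand, which held 316% of its counts, and no source used here says if the counting used strand, so Ankrd37 values are uncertain. Ufsp2 averaged 36.7 ± 1.30 CPM in vehicle day 7 and 24.3 ± 2.60 CPM in vehicle day 3 (SD, n = 3), the opposite direction to Ankrd37. Mxi1 held 62.0, 56.9 and 55.9 CPM in ES, 51.2, 50.7 and 55.5 CPM in vehicle day 3, 63.5, 64.8 and 59.9 CPM in vehicle day 5, and 73.6, 66.2 and 68.4 CPM in vehicle day 7. It stood at -0.15 (SE 0.07) in vehicle day 3 relative to ES (edgeR adjusted p = 0.0798) and rose by 0.40 (SE 0.07) in vehicle day 7 over vehicle day 3 (edgeR adjusted p = 4.09e-05).

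Between day 3 and day 7 of vehicle, then, all 10 members passed the threshold, against 67.4% of all genes (34.3% higher and 33.1% lower), with 5 higher (Vegfa, P4ha1, Egln1, Mxi1 and Ndrg1) and 5 lower (Egln3, Adm, Ankrd37, Bnip3 and Kdm3a). In vehicle day 5 relative to vehicle day 3 all 10 also passed, 7 higher and 3 lower, against 65.3% of all genes (31.9% higher and 33.4% lower). There Kdm3a, at 0.31 (SE 0.08), became -0.0396 (SE 0.07) corrected, the Egln3 and Ankrd37 calls were lost on TPM values, and the Ndrg1 call was lost without vehicle day 3 replicate 2 or without vehicle day 5 replicate 3. On the TPM scale 71.6% of the genes that passed were higher at day 5, against 48.9% on the CPM scale. In vehicle day 7 relative to vehicle day 5, 5 passed, 2 higher and 3 lower, against 66.3% of all genes (35.2% higher and 31.1% lower), and corrected the count was 8. The share of passing genes that were higher was 38.9% on the TPM scale and 53.1% on the CPM scale for that step, and 61.7% and 50.9% for day 7 over day 3. The fragment length of vehicle day 5 enters the steps from day 3 to day 5 and from day 5 to day 7, but not day 7 over day 3.

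**Figure D2:**
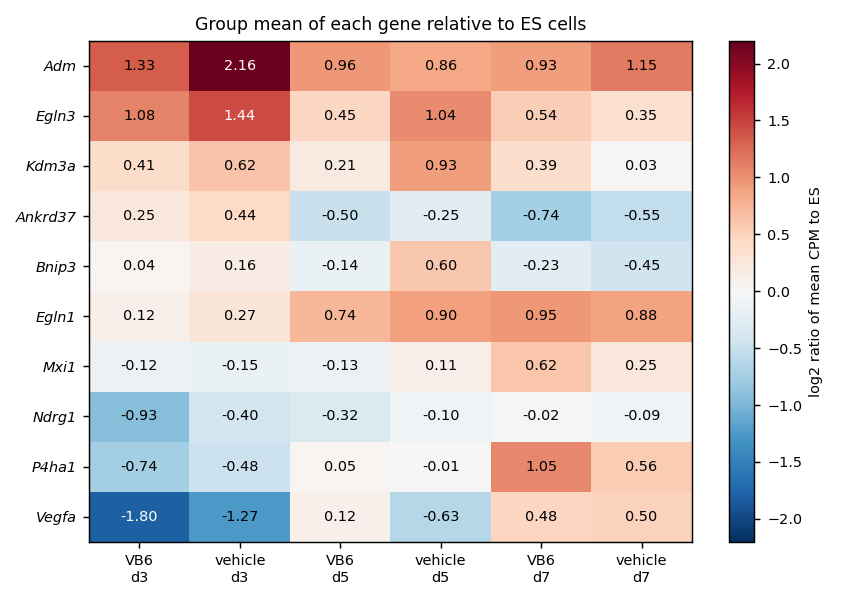
log2 ratio of each member's mean CPM (n = 3 libraries) in a VB6 or vehicle group to its mean in ES, as a colour scale from blue (lower) to red (higher) with the value in each cell. Adm reached 2.16 and Egln3 1.44 in vehicle day 3, while Vegfa stood at -1.80 in VB6 day 3 and -1.27 in vehicle day 3.

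Given VB6, the day 3 cultures had less of 4 members than vehicle: Adm, Vegfa, Ndrg1 and Egln3 fell, and none rose. That is 4 of 10, against 4.26% of all genes tested (1.49% higher and 2.77% lower). On the TPM scale 23.3% of the genes that passed were higher in VB6, against 34.9% on the CPM scale. The members' median log2 fold change was -0.24, against -0.01 for all genes. Of the members that did not pass, P4ha1 (-0.26), Kdm3a (-0.21), Ankrd37 (-0.19), Egln1 (-0.15) and Bnip3 (-0.13) also had negative log2 fold changes and Mxi1 stood at 0.03. Vegfa, Ndrg1 and P4ha1 were already below ES at day 3 in vehicle and lay further below it with VB6, while Adm and Egln3 were above ES in vehicle and less so with VB6.

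Adm held 12.1, 13.9 and 9.24 CPM in VB6 day 3, against 20.9, 16.9 and 25.1 CPM in vehicle day 3. Every VB6 library was below every vehicle library, and the log2 fold change was -0.83 (SE 0.17, edgeR adjusted p = 0.00547). Vegfa held 41.4, 44.4 and 34.2 CPM in VB6 day 3, against 49.98, 58.4 and 65.7 CPM in vehicle day 3. These too did not overlap, at a log2 fold change of -0.54 (SE 0.10, edgeR adjusted p = 0.00309). Ndrg1 held 55.5, 58.9 and 39.8 CPM in VB6 day 3, against 75.5, 63.6 and 83.0 CPM in vehicle day 3. The gap between arms was narrow, with 58.9 CPM the highest VB6 library and 63.6 CPM the lowest vehicle library, and the log2 fold change was -0.53 (SE 0.12, edgeR adjusted p = 0.0153). Egln3 held 113, 115 and 105 CPM in VB6 day 3, against 142, 137 and 147 CPM in vehicle day 3. It was lower in every VB6 library, by a log2 fold change of -0.36 (SE 0.08, edgeR adjusted p = 0.0115).

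The libraries of VB6 day 3 were ordered alike across members: replicate 2 was the highest of its group for 10 of 10 members and replicate 3 the lowest for 10 of 10. In vehicle day 3, replicate 2 was the lowest for 9 of 10 and replicate 3 the highest for 7. Without VB6 replicate 3, Adm (-0.68, edgeR adjusted p = 0.0423) and Vegfa (-0.44, edgeR adjusted p = 0.0244) kept their calls, while Ndrg1 (-0.37, edgeR adjusted p = 0.0856) and Egln3 (-0.32, edgeR adjusted p = 0.0607) lost theirs. Without vehicle replicate 3 both of these calls were lost again, at -0.44 for Ndrg1 (edgeR adjusted p = 0.0919) and -0.33 for Egln3 (edgeR adjusted p = 0.0551). After correction the 4 calls stood, and P4ha1 (-0.28, edgeR adjusted p = 0.0342) and Kdm3a (-0.24, edgeR adjusted p = 0.0475) joined them. Fragment lengths of the arms overlapped at this day, at 308 ± 3.40 nt in VB6 and 312 ± 4.33 nt in vehicle. Mitochondrially encoded reads took 2.79 ± 0.141% in VB6 and 2.42 ± 0.126% in vehicle, and ribosomal protein reads 6.99 ± 0.150% in VB6 and 6.27 ± 0.321% in vehicle. The 5 pluripotency genes summed to 1137 to 1160 CPM in VB6 and 1291 to 1428 CPM in vehicle, with none at 0 counts, and the 6 visceral endoderm genes to 527 to 576 CPM in VB6 and 498 to 580 CPM in vehicle. The part of these shares and markers in the result was not tested.

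At day 5, 5 of 10 members passed, against 56.7% of all genes (31.2% higher and 25.5% lower), 1 higher and 4 lower in VB6. Vegfa held 146, 148 and 160 CPM in VB6 day 5, against 87.8, 87.9 and 95.1 CPM in vehicle day 5. It was higher in every VB6 library, the opposite of day 3, by a log2 fold change of 0.75 (SE 0.09, edgeR adjusted p = 3.05e-07). Corrected, the same change was 0.28 (SE 0.07, edgeR adjusted p = 0.00311). Bnip3 held 318, 298 and 256 CPM in VB6 day 5, against 483, 504 and 469 CPM in vehicle day 5. Kdm3a held 168, 156 and 153 CPM in VB6 day 5, against 243, 252 and 292 CPM in vehicle day 5. Both genes lacked in VB6 the day 5 maximum that vehicle showed, with no overlap between arms. Bnip3 fell by a log2 of 0.74 (SE 0.08, edgeR adjusted p = 4.92e-08) and Kdm3a by 0.72 (SE 0.08, edgeR adjusted p = 8.45e-08). Corrected, Bnip3 stood at -0.91 (SE 0.08) and Kdm3a at -0.39 (SE 0.07).

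Egln3 held 71.3, 76.1 and 67.6 CPM in VB6 day 5, against 99.6, 105 and 118 CPM in vehicle day 5, and again did not overlap, at a log2 fold change of -0.58 (SE 0.08, edgeR adjusted p = 1.46e-06). Uncorrected, it is the only member called lower in VB6 at both day 3 and day 5, and its day 3 call depended on single libraries. Corrected, Ndrg1 (-0.47 at day 3 and -0.57 at day 5) and Kdm3a (-0.24 and -0.39) were also called lower at both days. Mxi1 held 51.5, 51.7 and 56.2 CPM in VB6 day 5, against 63.5, 64.8 and 59.9 CPM in vehicle day 5, a log2 fold change of -0.24 (SE 0.07, edgeR adjusted p = 0.00762), or -0.43 (SE 0.07) corrected. Adm, lower in VB6 at day 3, held 8.50, 7.96 and 10.8 CPM in VB6 day 5, against 8.48, 7.37 and 9.57 CPM in vehicle day 5, and the arms overlapped. Its log2 fold change was 0.09 (SE 0.18, edgeR adjusted p = 0.691). Corrected, Adm stood at -0.43 (SE 0.18), a change of sign that narrowly missed the threshold (edgeR adjusted p = 0.0547). P4ha1 (0.06, but -0.23 on TPM values), Egln1 (-0.17), Ndrg1 (-0.22) and Ankrd37 (-0.24) did not pass either. Corrected, 9 of 10 members passed, 2 higher (P4ha1 and Vegfa) and 7 lower, and on TPM values 9 passed, 1 higher and 8 lower. On the TPM scale the median of all genes itself stood at -0.16 and 32.8% of the genes that passed were higher in VB6, against 55.1% on the CPM scale. Mitochondrially encoded reads took 2.41 ± 0.272% in VB6 day 5 and 4.33 ± 0.216% in vehicle day 5. Summed markers also differed without overlap: 4 definitive endoderm genes ran from 146 to 157 CPM in VB6 and from 79.7 to 90.2 CPM in vehicle, 3 neural ectoderm genes from 125 to 153 CPM in VB6 and from 78.6 to 95.6 CPM in vehicle, and 4 fibroblast genes from 57.5 to 74.5 CPM in VB6 and from 31.0 to 32.4 CPM in vehicle. The 5 pluripotency genes ran from 535 to 579 CPM in VB6 and from 447 to 471 CPM in vehicle, and the 4 formative epiblast genes from 999.9 to 1162 CPM in VB6 and from 1260.2 to 1314 CPM in vehicle. Nanog and Pou3f1 went against these sums without overlap. Nanog was lower in VB6, at 95.9 to 108 CPM, against 145 to 159 CPM in vehicle. Pou3f1 was higher, at 106 to 135 CPM in VB6 and 62.7 to 72.5 CPM in vehicle. None of these genes was at 0 counts, and the part of these shares and markers in the result was not tested.

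At day 7, 4 of 10 members passed, against 36.5% of all genes (18.6% higher and 17.9% lower), and all 4 were higher in VB6. P4ha1 held 481, 439 and 385 CPM in VB6 day 7, against 317, 309 and 301 CPM in vehicle day 7. It was higher in every VB6 library, by a log2 fold change of 0.49 (SE 0.08, edgeR adjusted p = 6.69e-05), or 0.31 (SE 0.08) corrected. Mxi1 held 99.7, 89.7 and 78.9 CPM in VB6 day 7, against 73.6, 66.2 and 68.4 CPM in vehicle day 7. It too did not overlap, at 0.36 (SE 0.07, edgeR adjusted p = 0.000337), and stood at 0.40 (SE 0.06) corrected. Kdm3a held 180, 204 and 157 CPM in VB6 day 7, against 147, 144 and 131 CPM in vehicle day 7. Its difference of 0.36 (SE 0.08, edgeR adjusted p = 0.00135) did not pass after correction, at 0.15 (SE 0.08, edgeR adjusted p = 0.146).

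Bnip3 held 269, 301 and 252 CPM in VB6 day 7, against 232, 253 and 221 CPM in vehicle day 7. The arms overlapped, and its difference of 0.22 (SE 0.08, edgeR adjusted p = 0.036) was lost in 5 of 15 alternatives, among them those without VB6 replicate 1, without VB6 replicate 2, without vehicle replicate 1 and without vehicle replicate 3. Vegfa held 207, 194 and 182 CPM in VB6 day 7, against 220, 192 and 180 CPM in vehicle day 7, so the arms overlapped and the difference was -0.02 (SE 0.09, edgeR adjusted p = 0.871). On the TPM scale the same libraries held 194, 169 and 166 TPM in VB6, against 144, 138 and 123 TPM in vehicle, with no overlap, and the difference turned to 0.38 and passed with limma, on a scale where the median of all genes stood at 0.23. Egln3 held 76.1, 77.5 and 74.4 CPM in VB6 day 7, against 68.3, 67.9 and 64.0 CPM in vehicle day 7. These libraries did not overlap, yet the difference of 0.19 (SE 0.08) missed the threshold (edgeR adjusted p = 0.0757). Egln1 (0.07), Ndrg1 (0.07), Ankrd37 (-0.19) and Adm (-0.22) did not pass. On TPM values 7 members passed, all higher, and 82.5% of the genes that passed were higher, against 51.1% on the CPM scale. Visceral endoderm markers summed to 5009 to 6231 CPM in VB6 day 7 and 3769 to 4056 CPM in vehicle day 7, with none of the 6 at 0 counts, and 4 fibroblast markers to 444 to 692 CPM in VB6 and 430 to 602 CPM in vehicle. The visceral endoderm genes did not move as one: the means of Apob, Cubn and Afp were higher in VB6, and those of Apoa1, Amn and Ttr lower. Apob averaged 2588 CPM in VB6 and 1560 CPM in vehicle, Apoa1 115 and 151 CPM, and Amn 72.3 and 114 CPM. Lower without overlap in VB6 were the sums of 5 pluripotency genes, at 170 to 209 CPM in VB6 and 241 to 282 CPM in vehicle, of 4 formative epiblast genes, at 309.9 to 388 CPM in VB6 and 401 to 449.7 CPM in vehicle, and of 3 neural ectoderm genes, at 59.2 to 77.7 CPM in VB6 and 107 to 120.2 CPM in vehicle. Mitochondrially encoded reads took 3.32 ± 0.272% in VB6 day 7 and 2.16 ± 0.179% in vehicle day 7. The part of these markers and shares in the result was not tested.

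Whether the VB6 difference itself changed between days was tested with an F test in the same edgeR fit. It did for 8 of 10 members, against 60.0% of all genes, and the exceptions were Egln1 (edgeR adjusted p = 0.145) and Ankrd37 (edgeR adjusted p = 0.98). The direction of VB6 over vehicle turned round for Vegfa, called lower at day 3 and higher at day 5, and for Bnip3, Kdm3a and Mxi1, called lower at day 5 and higher at day 7. The Kdm3a turn did not hold after correction, since its day 7 call was lost, and that of Bnip3 rests on the day 7 call that was lost in 5 alternatives. Days 5 and 7 are those where fragment length differed between arms, in opposite directions, and its effect cannot be told apart from that of VB6. The correction covers only trends over GC content and transcript length, so this limit holds for corrected values too.

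**Figure D3:**
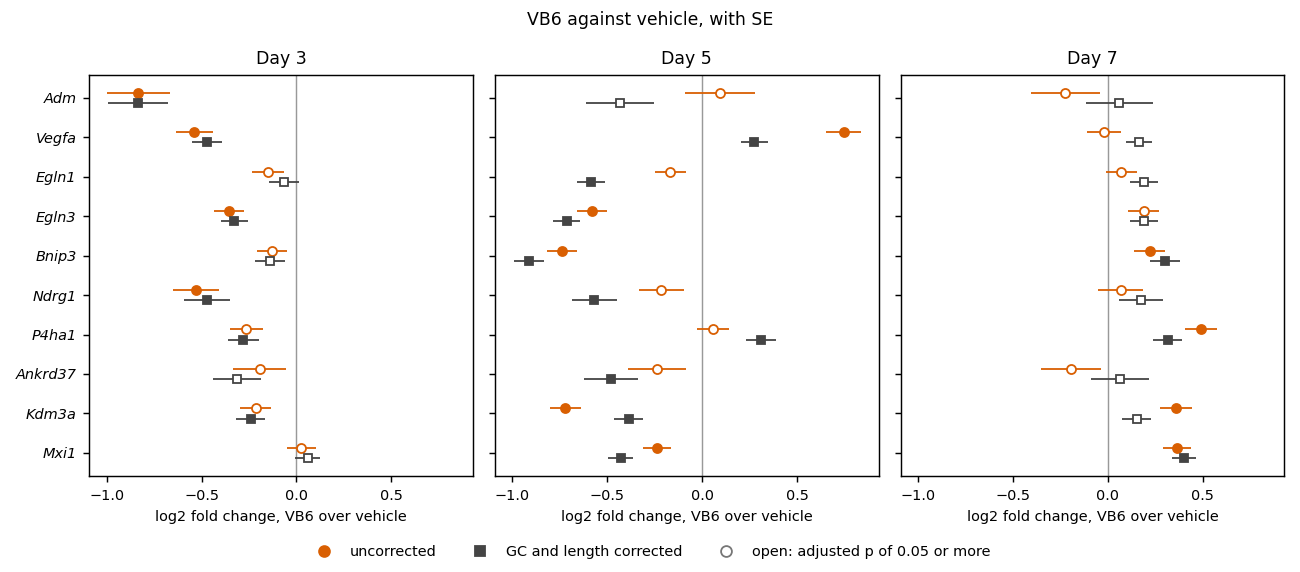
log2 fold change of each member, VB6 over vehicle, at days 3, 5 and 7, with SE as bars (n = 3 libraries per group). Orange circles are uncorrected and grey squares corrected values, filled where the edgeR adjusted p was under 0.05. Adm and Vegfa lie at -0.83 and -0.54 at day 3, Vegfa at 0.75 or corrected 0.28 at day 5, and P4ha1 at 0.49 or corrected 0.31 at day 7.

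Followed through the VB6 groups alone, the members took similar turns at day 3. In VB6 day 3 relative to ES 6 of 10 passed, 3 higher and 3 lower, against 65.3% of all genes (33.2% higher and 32.1% lower). Adm rose by a log2 of 1.33 (SE 0.19), Egln3 by 1.08 (SE 0.08) and Kdm3a by 0.41 (SE 0.08), while Vegfa stood at -1.80 (SE 0.10), Ndrg1 at -0.93 (SE 0.12) and P4ha1 at -0.74 (SE 0.09), each with an edgeR adjusted p of at most 0.000135. The Kdm3a difference was 0.26 corrected and -0.0282 on TPM values, a scale on which 37.8% of the genes that passed were higher, against 50.8% on the CPM scale. In VB6 day 5 relative to VB6 day 3, where fragment lengths were alike, 7 passed, 4 higher and 3 lower, against 56.2% of all genes (29.9% higher and 26.4% lower). On the TPM scale 69.0% of the genes that passed were higher, against 53.1% on the CPM scale. Vegfa rose by 1.92 (SE 0.10, edgeR adjusted p = 8e-14) between those days, P4ha1 by 0.79 (SE 0.09), Egln1 by 0.62 (SE 0.08) and Ndrg1 by 0.62 (SE 0.12), and corrected the last of these were 0.29 for Egln1 and 0.39 for Ndrg1. Ankrd37 (-0.74, SE 0.15), Egln3 (-0.63, SE 0.08) and Kdm3a (-0.20, SE 0.08) were lower, and the Kdm3a call was lost without any 1 of 4 libraries, VB6 day 3 replicates 1 and 2 and VB6 day 5 replicates 2 and 3. In VB6 day 7 relative to VB6 day 5, 5 passed, all higher, against 54.5% of all genes and 27.3% of them higher. P4ha1 rose by 1.001 (SE 0.08), Mxi1 by 0.75 (SE 0.07), Vegfa by 0.36 (SE 0.09), Ndrg1 by 0.29 (SE 0.12) and Egln1 by 0.22 (SE 0.08). Without VB6 day 5 replicate 3 or without VB6 day 7 replicate 2 the count was 3, and the Egln1 and Ndrg1 calls were lost. The Egln1 call was also lost without VB6 day 5 replicate 1, and the Ndrg1 call without VB6 day 5 replicate 2 or VB6 day 7 replicate 1. Corrected, P4ha1 rose by 0.81, Mxi1 by 0.77, Vegfa by 0.54, Ndrg1 by 0.36 and Egln1 by 0.29, and each passed.

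Of 15 regulators of HIF itself, 2 were lower in VB6 day 3 than in vehicle day 3 and none higher, against 4.26% of all genes called. Epas1, the HIF alpha subunit prominent in vessels, averaged 13.8 ± 1.37 CPM in VB6 and 29.0 ± 5.53 CPM in vehicle (SD, n = 3), a log2 fold change of -1.06 (SE 0.13, edgeR adjusted p = 5.72e-05). Hif3a, an alpha subunit that can act as a restraint, averaged 17.2 ± 1.43 CPM in VB6 and 20.98 ± 1.402 CPM in vehicle, at -0.29 (SE 0.08, edgeR adjusted p = 0.0431). Hif1a, the general alpha subunit, stood at 0.13 and did not pass (edgeR adjusted p = 0.27). At day 5, 13 of the 15 passed, 6 higher and 7 lower, against 56.7% of all genes. The smallest p-values were those of Elob, a subunit of the von Hippel-Lindau ubiquitin ligase, at 123 ± 13.1 CPM in VB6 and 52.5 ± 4.20 CPM in vehicle (1.23, SE 0.10, edgeR adjusted p = 5.95e-10), and of the hydroxylase Egln2, at 39.3 ± 0.852 CPM in VB6 and 18.9 ± 1.85 CPM in vehicle (1.05, SE 0.09, edgeR adjusted p = 9.87e-10). The ligase scaffold Cul2 (-0.53, SE 0.05) and Hif1a were lower, Hif1a at 128 ± 2.61 CPM in VB6 and 200 ± 4.48 CPM in vehicle (-0.65, SE 0.06, edgeR adjusted p = 1.22e-08). At day 7, 10 passed, 6 higher and 4 lower, against 36.5% of all genes. Elob, at 73.8 ± 5.26 CPM in VB6 and 129 ± 12.1 CPM in vehicle (-0.80, SE 0.10, edgeR adjusted p = 1.07e-06), the ligase subunit Rbx1 (-0.62, SE 0.09) and Egln2 (-0.56, SE 0.08) were lower there. Epas1 was higher, at 68.1 ± 6.80 CPM in VB6 and 43.2 ± 4.88 CPM in vehicle (0.65, SE 0.12, edgeR adjusted p = 9.98e-05). Elob and Rbx1 were lowest in the 2 short-fragment groups. Elob averaged 52.5 CPM in vehicle day 5 and 73.8 CPM in VB6 day 7, against 123 to 167 CPM elsewhere. Rbx1 averaged 63.8 and 66.7 CPM there, against 84.7 to 103 CPM elsewhere. Values of this and the other lists are uncorrected, and fragment length and VB6 cannot be told apart at days 5 and 7. In vehicle day 3 relative to ES, 12 of 15 passed, 7 higher and 5 lower, against 64.9% of all genes, led by Cited2, which competes with HIF for its coactivator, at 62.2 ± 4.28 CPM in vehicle day 3 and 16.7 ± 2.63 CPM in ES (1.896, SE 0.10, edgeR adjusted p = 8.93e-14).

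A list of 30 other HIF target genes outside glycolysis had 29 tested. In VB6 day 3 relative to vehicle day 3, 6 were lower and none higher, against 2.77% of all genes lower and 1.49% higher, with a median log2 fold change of -0.14. They included Stc2, a secreted glycoprotein (20.5 ± 1.67 CPM in VB6 and 31.8 ± 2.62 CPM in vehicle, -0.63, SE 0.11), and the histone demethylases Kdm4b (-0.39, SE 0.07) and Kdm4c (-0.30, SE 0.06). At day 5, 10 were higher and 11 lower, against 31.2% and 25.5% of all genes, and at day 7, 8 were higher and 7 lower, against 18.6% and 17.9%. Those with the smallest p-values went both ways. At day 5 Kdm4b (0.77, SE 0.07) was higher, and Ccng2, an atypical cyclin (-1.18, SE 0.11), Kdm4c (-0.71, SE 0.06) and the mitophagy receptor Bnip3l (-0.54, SE 0.06) were lower. At day 7 Ccng2 (0.73, SE 0.11) was higher, and Ddit4, an inhibitor of mTOR signalling (-0.66, SE 0.07), and Higd1a, a mitochondrial inner membrane protein (-1.04, SE 0.14), were lower. Higd1a was lowest in the 2 short-fragment groups, at 31.0 CPM in vehicle day 5 and 25.8 CPM in VB6 day 7. It averaged 53.2 to 77.3 CPM elsewhere. Plod2, a collagen lysyl hydroxylase, was also higher at day 7, at 503 ± 56.6 CPM in VB6 and 310 ± 14.3 CPM in vehicle (0.70, SE 0.08, edgeR adjusted p = 5.95e-07). Of 13 paralogs of the members, none passed by edgeR at day 3, against 4.26% of all genes, and 3 (Kdm3b, Mxd4 and Mnt) had an unadjusted p under 0.05. At day 5, 7 passed, against 56.7%, and at day 7, 3 passed, against 36.5%.

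Of 15 receptors and partners of the members, 14 were tested. In VB6 relative to vehicle, 3 passed at day 3, 1 higher and 2 lower, against 4.26% of all genes. At day 5, 9 passed, 7 higher and 2 lower, against 56.7%, and at day 7, 4 passed, 3 higher and 1 lower, against 36.5%. The one higher at day 3 was Ramp2, a co-receptor for adrenomedullin, at 10.9 ± 0.661 CPM in VB6 and 8.18 ± 0.314 CPM in vehicle (0.41, SE 0.12, edgeR adjusted p = 0.0448). Flt1, a VEGFA receptor that is also a decoy, averaged 3.56 ± 0.269 CPM in ES, 9.71 ± 1.72 CPM in vehicle day 3 and 64.8 ± 1.28 CPM in vehicle day 7, and rose by 2.73 (SE 0.10) in vehicle day 7 over vehicle day 3 (edgeR adjusted p = 1.17e-16). Kdr, the main signalling receptor for VEGFA, did not exceed a group mean of 4.83 CPM, and Calcrl, the adrenomedullin receptor, did not exceed 3.81 CPM. In VB6 day 7 relative to vehicle day 7, Flt1 averaged 106 ± 9.61 CPM in VB6 and 64.8 ± 1.28 CPM in vehicle (0.71, SE 0.09, edgeR adjusted p = 1.33e-06). Of 6 endothelial markers, Emcn had 0 counts in all 21 libraries, which allows up to 0.187 CPM per library for counting error only, and Cdh5 averaged 0.249 CPM in vehicle day 7 and 0.279 CPM in ES. The 6 summed to 6.21 ± 0.628 CPM in vehicle day 7 and 112 ± 4.75 CPM in ES, of which Pecam1 alone was 3.44 ± 0.206 CPM in vehicle day 7 and 103 ± 4.75 CPM in ES. P4hb, the partner that P4ha1 needs to form an active enzyme, rose by 0.55 (SE 0.06) in vehicle day 7 over vehicle day 3 (848 ± 53.9 CPM at day 7 and 578 ± 22.1 CPM at day 3, edgeR adjusted p = 2.46e-08). Of the MYC family genes, which Mxi1 opposes, Myc fell to 24.4 ± 4.19 CPM in VB6 day 3, against 38.3 ± 3.92 CPM in vehicle day 3 (-0.65, SE 0.12, edgeR adjusted p = 0.00426), and Mycn to 91.6 ± 9.04 CPM in VB6 day 3, against 126 ± 16.0 CPM in vehicle day 3 (-0.46, SE 0.11, edgeR adjusted p = 0.0151).

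**Figure D4:**
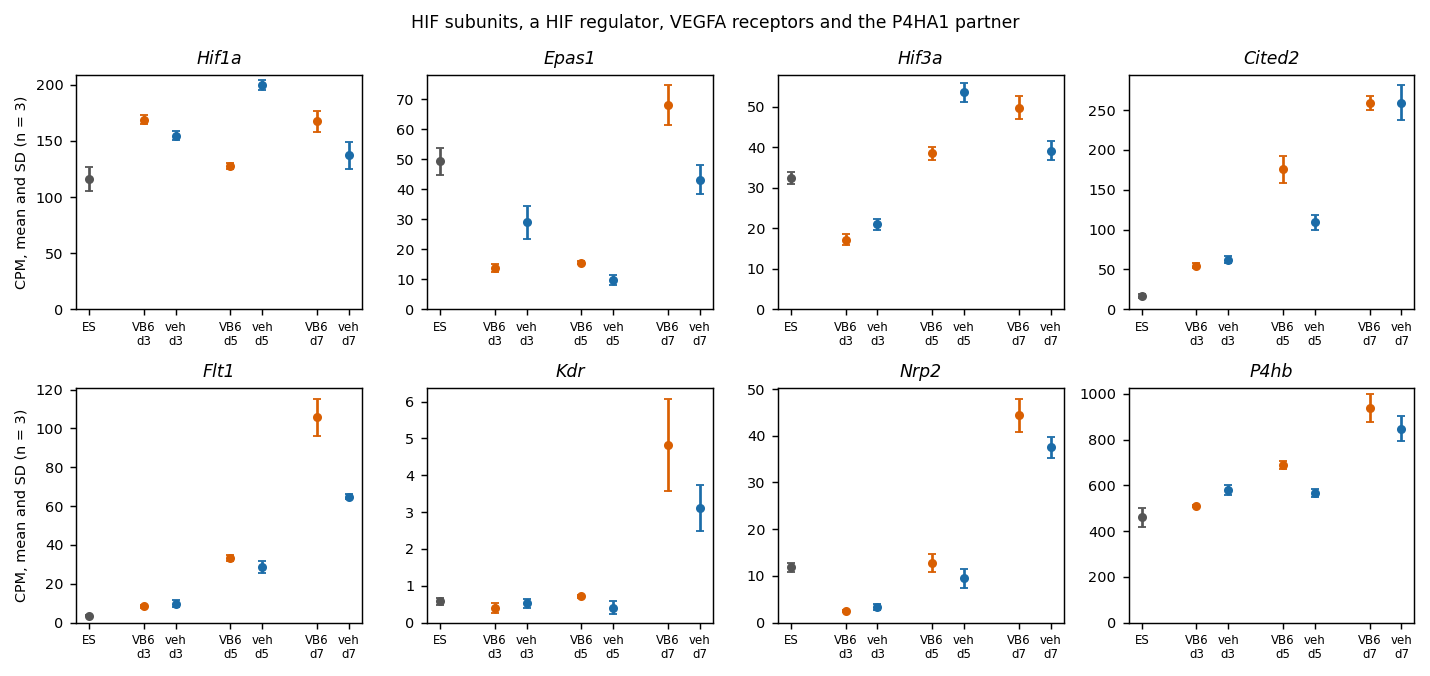
Mean CPM with SD (n = 3 libraries) of 3 HIF alpha subunits, the HIF regulator Cited2, 3 VEGFA receptors or co-receptors and P4hb, with ES first and then VB6 (orange) and vehicle (blue) at days 3, 5 and 7, on linear axes from 0. At day 3 the Epas1 mean was 13.8 CPM with VB6 and 29.0 CPM with vehicle, and Kdr stayed at or below 4.83 CPM.

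Across the 7 group means of log2 CPM the members formed no single pattern. The highest Pearson correlations were between P4ha1 and Mxi1 (0.90), Vegfa and P4ha1 (0.90), Bnip3 and Kdm3a (0.84), Adm and Egln3 (0.83) and Vegfa and Ndrg1 (0.83). The lowest were between P4ha1 and Ankrd37 (-0.90) and Vegfa and Ankrd37 (-0.87). These values describe 7 points that share libraries and the 2 short-fragment groups. By the same measure, the protein-coding gene most like each member among 8059 or 8060 whose group means spanned at least 1 log2 unit was Wnt7b for Vegfa (0.9952), Rmdn1 for Egln1 (0.99505), Zfp977 for Ankrd37 (0.994), B3galnt1 for P4ha1 (0.993) and Nlgn4l for Kdm3a (0.983). For the others it was Cnksr2 for Mxi1 (0.981), Or51q1 for Bnip3 (0.980), Nr1d1 for Egln3 (0.977), Eno4 for Adm (0.970) and Lrrc51 for Ndrg1 (0.934). Each is the highest of 8059 or 8060 correlations over only 7 points, so a high value alone shows no link. Some of these genes were low, with a lowest group mean of 0.287 CPM for Lrrc51, 0.525 CPM for Wnt7b, 0.712 CPM for Cnksr2 and 0.768 CPM for Eno4.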

How the data were processed

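RNA from E14 cells was sequenced in 21 libraries, grouped by the labels, whose titles name the tables' columns. The authors deposited expected counts (estimated, 26.9 to 30.5% of the values above 0 not whole), TPM and FPKM. The submitters' processing notes name mm10, and the sources used here give no aligner, counter or strand setting. The labels' protocol mentions both total and small RNA, so library preparation is uncertain.

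Expected counts were rounded, filtered with filterByExpr (18901 genes), scaled by TMM and tested with edgeR 4.0.16 (R 4.3.3, quasi-likelihood, 1 fit over all libraries, Benjamini-Hochberg adjustment, threshold 0.05). Whole counts had been assumed in the design, and the test was kept. The test was also run on simulated data for the day 5 comparison only. Those were whole counts drawn from the edgeR fit, with no added fragment length effect. They therefore cannot check the rounding of expected counts or the short-fragment groups. The corrected fit used splines over GC content (GENCODE M21) and effective length, for 16772 genes (88.7%). Fragment length came from deposited FPKM and counts of 578 genes with a single transcript. Alternatives used DESeq2 1.42.0, limma 3.58.1 on log2(TPM + 1), other filters and subsets of libraries. Floors cover counting error only.

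The members and lists were chosen with earlier results of these data known. Named genes were all members plus up to 4 per list and comparison, by smallest p among those that passed. Hif1a at day 3 and Emcn were named after their values were seen.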

Additional observations from a re-analysis of the deposited data

Results flagged for a closer look

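The difference between VB6 and vehicle was itself different between days for 8 of 10 members, by the edgeR quasi-likelihood F test over days 3, 5 and 7. The adjusted p was 8.4e-08 for Vegfa, 1.36e-07 for Kdm3a, 5.53e-07 for Bnip3 and 1.11e-05 for Egln3. It was 3.66e-05 for P4ha1, 9.25e-05 for Mxi1, 0.0069 for Adm and 0.0134 for Ndrg1. Among all genes tested 60.0% passed the same test. The log2 fold change of VB6 over vehicle at days 3, 5 and 7 was -0.54, 0.75 and -0.02 for Vegfa, -0.21, -0.72 and 0.36 for Kdm3a, and -0.13, -0.74 and 0.22 for Bnip3. Fragment length was 312 ± 4.27 nt in VB6 and 227 ± 8.69 nt in vehicle at day 5, and 266 ± 7.77 nt in VB6 and 308 ± 5.84 nt in vehicle at day 7. After correction for GC content and length the edgeR adjusted p remained under 0.05 for these 8 members, and it was 6.14e-06 for Egln1, which had not passed before.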

How the results depend on the processing

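Of 64 calls of single members in pairwise comparisons, 49 were kept in every alternative tried. The number of members called moved by over 1.5 times as follows. For VB6 against vehicle it was 9 at day 5 corrected for GC and length, with or without the replicate block, and 9 on TPM values, and at day 7 it was 7 on TPM values. For vehicle day 7 against day 5 it was 8 corrected, with or without the replicate block. Leaving out 1 library gave 2 to 5 members for VB6 against vehicle at day 3 and 3 to 6 for VB6 day 7 against VB6 day 5. Single members reversed on TPM values: P4ha1 to -0.23 at day 5 and Vegfa to 0.38 at day 7 of VB6 against vehicle, and Kdm3a to -0.0282 in VB6 day 3 against ES and to 0.0696 in VB6 day 5 against VB6 day 3. Corrected, Kdm3a became -0.0396 in vehicle day 5 against day 3 (-0.0389 with the replicate block) and Ndrg1 became -0.38 in vehicle day 7 against day 5. The cause was not tested. Sign changes of members that passed in neither fit are not listed. The count over all genes for VB6 against vehicle was 805 at day 3, against 275 on TPM values. At day 5 it was 10716, against 6704 corrected, and at day 7 it was 6899, against 4579 corrected, where fewer genes were tested. The TPM scale moved the median of all genes by 0.30 in vehicle day 5 over day 3 and by 0.26 in VB6 day 7 over VB6 day 5. Same-numbered libraries did not deviate together, with correlations from -0.236 to 0.147, and the replicate block alone added 2 Bnip3 calls, at 0.16 in vehicle day 3 over ES and -0.17 in VB6 day 5 over VB6 day 3. A fit without the vehicle day 5 and VB6 day 7 libraries, chosen after seeing the data, also called 4 members at day 3.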
